A study of Rattus norvegicus with 30 samples.

Results

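The genes described are 51 cytoskeleton, annexin and S100 genes of primary rat hepatocytes treated with clofibrate. Clofibrate is a lipid-lowering fibrate and acts through PPAR-alpha, a nuclear receptor. The genes were listed by name, and a gene entered when a probe set of the array carried its symbol and no other, with the brightest such probe set taken by mean log2 signal over all 30 arrays. That left 45 genes of the 14217 with a probe set of their own, since Actb, Myl6, Tmsb10, Cfl1, Tuba1a and Tuba1c appear only in probe sets that carry several symbols. A filter on low signal, which kept 18625 of 31042 probe sets, was passed by 39 of the 45, and all tests and counts refer to these 39. The 6 below the filter were Tpm2, Tagln, Krt19, Tubb2b, S100a4 and Lgals1.

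The cells were hepatocytes of male Sprague Dawley rats, bought frozen, plated on collagen in 6-well plates, overlaid with Matrigel and dosed on day 3 of culture. They received 60 uM clofibrate, 1000 uM clofibrate or the 1% DMSO vehicle, and RNA was taken after 24 or 48 h, which gives 6 groups of 5 arrays. Each array is 1 separately cultured well, and the sources used here do not give the number of animals, so the errors and p-values measure the spread between wells. Per the labels the clofibrate solutions were prepared in DMSO too. The cells are a culture model that had been on a dish for days before dosing, and the controls share that state.

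The cytoskeleton of a liver cell has 3 filament systems. Actin filaments are built from actin monomers, cross-linked and pulled by filamin, alpha-actinin, tropomyosin and non-muscle myosin, and anchored to the membrane by linkers such as vinculin, zyxin, ezrin and moesin. Keratins 8 and 18 form the intermediate filaments of the hepatocyte in the liver, vimentin is the intermediate filament of mesenchymal cells, and tubulins form microtubules. Annexins bind phospholipid membranes when calcium is present, and several S100 proteins, which are small calcium-binding proteins, pair with annexins. Hepatocytes on a dish flatten and spread, and raised levels of actin-system and mesenchymal genes are a known mark of their dedifferentiation in culture.

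Many genes of the actin system are known targets of the transcription factor SRF, which binds a CArG box, and of TEAD factors, which bind the core GGAATG. Promoters from RefSeq (build GRCr8) were matched for 33 of the 39 genes, and both strands of the 250 bases before each start were searched for CArG boxes (CC, 6 letters that are A or T, then GG) and for GGAATG, read as CATTCC on the other strand. A CArG box was present in 2 of the 33 (6.06%), against 1.5% of all 27457 promoters, and GGAATG in 10 of the 33 (30.3%), against 11.8% of all. The box lay in the promoters of 2 actins. The stretches below show these matches in capitals, written in the direction of transcription, for the 3 measured actins, for the strongly lowered Flna and Tagln2, and for Vcl, the gene that went the other way. Each gene shown holds a match. No match was found for Vim, S100a6, Tpm4 or Tmsb4x, which were strongly lowered too. Whether each of these was among the 33 is not given here. A match describes letters in these windows and is not shown to be a binding site.
Acta1, chr19:68784226-68784318, minus strand: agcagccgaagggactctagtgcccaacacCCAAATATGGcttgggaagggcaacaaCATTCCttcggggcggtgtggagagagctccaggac
Actg1, chr10:106121002-106121071, minus strand: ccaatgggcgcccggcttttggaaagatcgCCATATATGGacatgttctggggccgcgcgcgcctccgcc
Acta2, chr1:241172664-241172729, minus strand: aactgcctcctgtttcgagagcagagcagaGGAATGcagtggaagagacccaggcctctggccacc
Flna, chrX:157182382-157182447, minus strand: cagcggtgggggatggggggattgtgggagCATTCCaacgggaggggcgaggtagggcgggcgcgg
Tagln2, chr13:87499208-87499311, plus strand: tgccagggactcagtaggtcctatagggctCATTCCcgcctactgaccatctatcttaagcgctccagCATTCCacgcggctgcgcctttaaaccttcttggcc
Vcl, chr15:3404932-3404997, minus strand: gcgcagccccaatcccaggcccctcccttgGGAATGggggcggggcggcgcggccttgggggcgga

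The CArG box of Acta1 reads CCAAATATGG and begins 94 bases before the start, and that of Actg1 reads CCATATATGG and begins 90 bases before it. Acta1 carries CATTCC as well, and Tagln2 carries it at 2 places. Vcl, which rose, and Flna, which fell, each hold 1 match to the TEAD core.

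Signals are Affymetrix MAS5 signals on a linear scale, as the authors deposited them. Every array has the same trimmed mean of 1501, leaving out 2% of probe sets at each end. Signals can be compared between groups for 1 probe set, not between probe sets. Correlations between replicate arrays were 0.964 to 0.979, the lowest between groups was 0.93, and no 2 arrays were identical. The array's own beta-actin control sets gave a 3' over 5' ratio, a measure of RNA quality, with group means of 2.42, 2.43 and 2.56 with DMSO, 60 uM and 1000 uM at 24 h and 2.33, 2.33 and 2.48 at 48 h. The ratio was thus a little higher at 1000 uM, and its part in the results was not tested. The 24 poly-A spike-in control sets averaged log2 10.22, 10.1 and 9.99 at 24 h and 10.07, 10.03 and 9.9 at 48 h. Scaled to them, the median change of all probe sets at 1000 uM moved from -0.051 to 0.175 at 24 h and from -0.042 to 0.12 at 48 h. The changes of single genes below are therefore relative to the authors' scaling, and calls that this other scaling ended are named with each group of genes. The sources used here do not give the amounts of spike-in added, and the spike-in sets varied among replicates with an SD of 0.0564 to 0.185 on the log2 scale.

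Hepatocyte markers were bright: all 9 measured lay above the array's floor in every group, with albumin (Alb) at a mean of 87492 ± 4340 (SD, n = 5) with DMSO at 24 h. Their summed signal per array was 479700 to 533377 with DMSO and 416364 to 465417 at 1000 uM at 24 h, and 422238 to 510297 against 420408 to 445531 at 48 h. At 1000 uM 2 of the 9 passed as higher and 5 as lower at 24 h, and 3 as higher and 2 as lower at 48 h. That is 77.8% and 55.6% called, against 28.9% and 37.9% of all probe sets tested. At 48 h the metabolic enzyme Cyp2e1 rose by 1.21 ± 0.09 and the receptor subunit Asgr1 by 0.82 ± 0.04, and fibrinogen beta (Fgb) fell by 0.82 ± 0.06. Of 10 stellate and myofibroblast markers measured, none of the 4 above the filter passed against DMSO at either dose or time in the limma fit, and their unadjusted p was under 0.05 in 2 of 16 tests. The shares of all probe sets called were 6.56% and 28.9% at 24 h (60 and 1000 uM) and 9.05% and 37.9% at 48 h. Their summed signal was 2715 to 3807 with DMSO and 2988 to 3641 at 1000 uM at 24 h, and 2693 to 3517 against 3364 to 3690 at 48 h, while Lrat and Lum lay under the floor in 5 of 6 groups each. The 6 endothelial markers summed to 1933 to 2385 with DMSO and 1997 to 2415 at 1000 uM at 24 h, and to 1365 to 2123 against 1907 to 2077 at 48 h. Of the 4 above the filter, 0 passed at 1000 uM at 24 h, with a median change of -0.18. At 48 h only Pecam1 passed, with a rise of 0.70 ± 0.26, and the median change of the 4 was -0.02. That is 25% called, against 37.9% of all probe sets tested.

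The summed signal of 10 Kupffer cell and macrophage markers was 27499 to 29126 with DMSO and 23888 to 26036 at 1000 uM at 24 h, and 23374 to 27229 against 21463 to 22670 at 48 h. Lyz2 passed as lower at both doses and times, by 0.59 ± 0.08 and 0.85 ± 0.08 at 1000 uM on the log2 scale. Of the 7 markers above the filter, Lyz2 alone passed at 60 uM at 24 h (14.3%, against 6.56% of all probe sets). By 48 h another marker passed as higher at 60 uM, so 1 was higher and 1 lower (28.6% against 9.05%). The median change of the 7 there was 0.12. C1qb fell by 1.86 ± 0.32 at 1000 uM at 48 h. At 1000 uM the remaining macrophage markers above the filter, 6 of 7 at 24 h and 5 of 7 at 48 h, did not pass, with Cd68, Clec4f and Csf1r at 0.16, 0.38 and 0.29 at 48 h, and the median change of the 7 was -0.10 and -0.01. Thus 14.3% and 28.6% of the 7 were called at this dose, below the 28.9% and 37.9% of all probe sets. Epcam fell by 0.44 ± 0.05 and 0.43 ± 0.05 at 1000 uM, and the 6 bile duct markers summed to 10308 to 11945 with DMSO and 7509 to 8544 at 1000 uM at 24 h, and to 13070 to 15416 against 10423 to 11066 at 48 h, with Krt7 under the floor in every group. Muc1, the other bile duct marker above the filter, had changes of -0.46 and 0.35 at 1000 uM and did not pass. Thus 50% of the 2 were called at each time, against the same 28.9% and 37.9%. Both summed levels were thus lower at 1000 uM, while Lyz2, C1qb and Epcam were the markers of the 2 lists that passed there, and their part in the results was not tested. The sums mostly follow the brightest genes. Among macrophage markers these were Cd14, which did not pass, and Lyz2, at mean log2 signals of 13.93 and 12.53, with Cd68 next at 10.56. Among bile duct markers Epcam was at 13.33 and Muc1 next at 8.46. In RNA of a whole culture, fewer cells of a type and less RNA per cell cannot be told apart.

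At 1000 uM the cytoskeletal, annexin and S100 genes were mostly lower. At 24 h, 30 of 39 passed as lower and 0 as higher (76.9% called), where 28.9% of all probe sets tested were called and 17.4% were called lower. At 48 h, 32 passed as lower and 1, vinculin, as higher (84.6% called), against 37.9% of all probe sets called, 22.7% called lower and 15.2% called higher. The median change of the 39 genes was -0.39 at 24 h and -0.53 at 48 h on the log2 scale, against -0.05 and -0.04 over all probe sets tested. Of the 39, 29 were lower at both times, which is 96.7% of those lower at 24 h and 90.6% of those lower at 48 h. With 30 and 32 of 39 lower, much of this overlap follows from the counts themselves. The share of all probe sets lower at both times is not given here. Actg1 passed only at 24 h and Anxa3, Anxa6 and Anxa7 only at 48 h.

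The 60 uM dose gave fewer and smaller falls. At 24 h, 9 genes passed as lower and 0 as higher, which is 23.1% against a background of 6.56% called and 3.14% called lower, with a median change of -0.11 that turned to 0.009 under spike-in scaling. At 48 h, 17 passed as lower and 0 as higher, which is 43.6% against 9.05% called and 4.43% called lower, with a median of -0.22. Both doses were compared with the same DMSO arrays at each time, so their counts are not independent of each other. Under spike-in scaling the counts were 4 and 14 of 39 at 24 h for 60 and 1000 uM, and 6 and 25 at 48 h. Of all probe sets, 4.67% and 29% were called at 24 h under that scaling and 3.97% and 31.5% at 48 h. The 14 were 13 lower and 1 higher, and the 25 were 23 lower and 2 higher. The calls kept under all of the authors' scaling, median centring, quantile normalization and spike-in scaling numbered 4 of 9, 13 of 30, 6 of 17 and 24 of 33 in the same order.

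The direct step from 60 to 1000 uM lowered 22 genes at 24 h and 28 at 48 h, with Vcl the 1 gene that rose, at 48 h. That is 56.4% and 74.4% of the 39 called, against 17.9% and 25.3% of all probe sets. Of all probe sets 10.4% were called lower at 24 h, and at 48 h 15.3% lower and 10% higher. Vim had the largest step, with falls of 1.37 ± 0.10 and 1.87 ± 0.10 on the log2 scale (adjusted p = 3.59e-12 and 1.32e-15, limma). Under spike-in scaling these counts were 11, against 11.2% of all probe sets called, and 15, of which 14 were lower and 1 higher, against 17.4%.

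**Figure D1:**
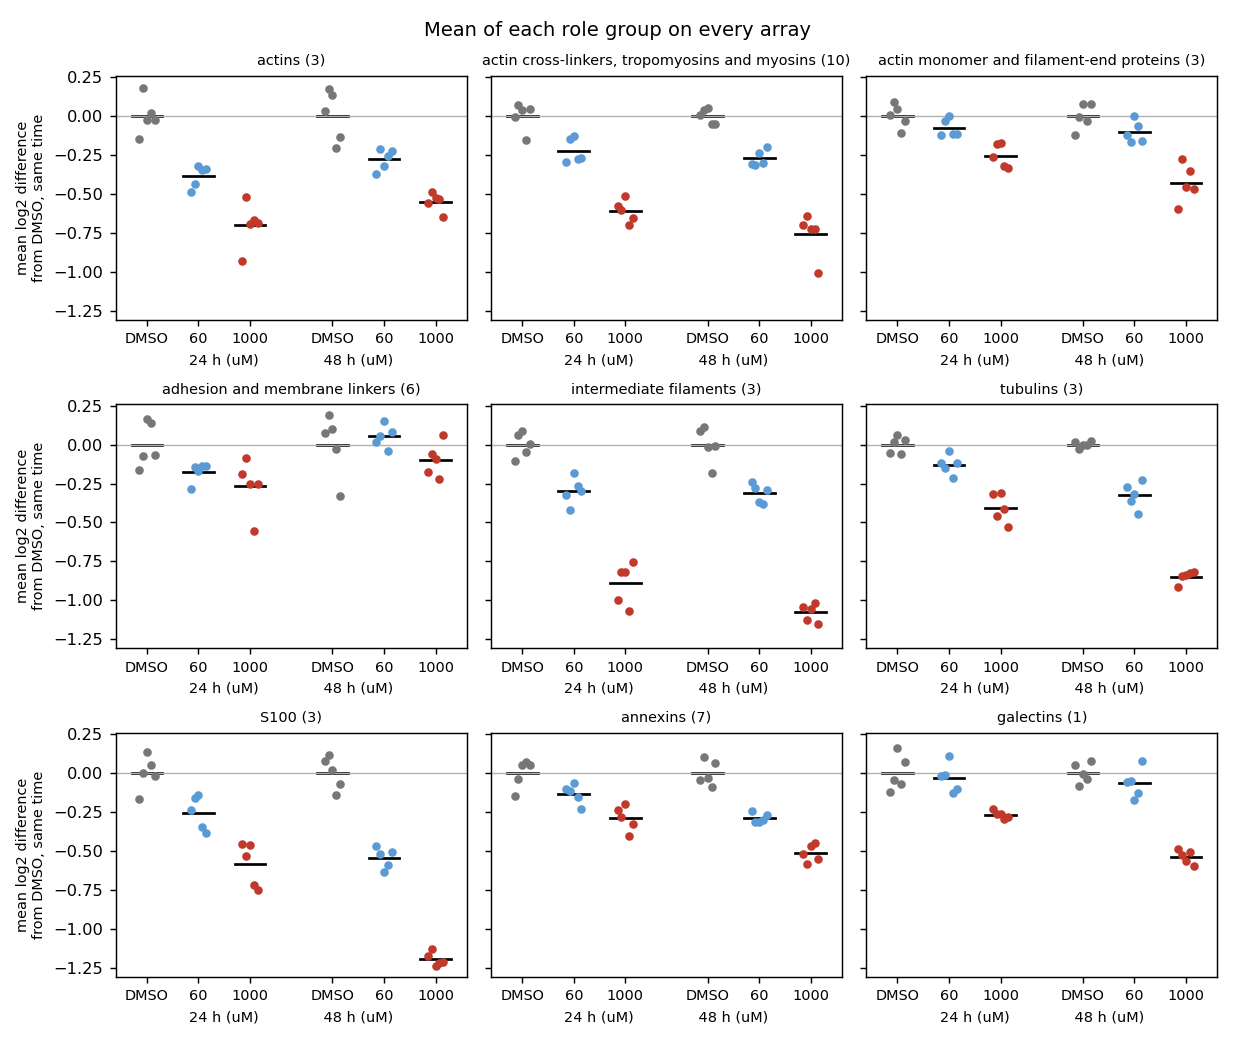
Mean log2 difference from the DMSO mean of the same time for each role group, on every array, with 1 panel per group of genes and the number of genes in brackets. Points are arrays, 5 per group, bars are group means, and the x axis gives the dose at 24 h and at 48 h. The S100 and intermediate filament genes lie lowest at 1000 uM at 48 h, and there the adhesion and membrane linkers overlap DMSO.

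The intermediate filament genes held the largest fall of all 39 genes. All 3 above the filter passed as lower at 1000 uM at both times, where 28.9% and 37.9% of all probe sets were called. Their medians were -0.32 and -0.28 on the log2 scale, but the 3 were far from alike. Vimentin (Vim) fell several-fold while the keratins fell by a small fraction. At 24 h, Vim signal was 9510, 10161, 10718, 10162 and 10371 on the 5 DMSO arrays, 6053, 5483, 6556, 7146 and 6999 at 60 uM and 1969, 2850, 2706, 1998 and 3080 at 1000 uM. By 48 h, Vim read 14037, 14367, 13022, 10830 and 11636 with DMSO, 6721, 7666, 7644, 7264 and 7135 at 60 uM and 2107, 1727, 2193, 2275 and 1747 at 1000 uM. Each step of dose separated the arrays completely at both times. The fall at 60 uM was 0.67 ± 0.10 at 24 h and 0.80 ± 0.10 at 48 h on the log2 scale (adjusted p = 2.72e-05 and 8.06e-07). At 1000 uM it was 2.04 ± 0.10, a 4.11-fold lower signal, at 24 h and 2.67 ± 0.10, or 6.36-fold, at 48 h (adjusted p = 5.03e-17 and 2.65e-20).

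Keratins 8 and 18, which pair to form the hepatocyte's own filaments, moved little and in step. At 24 h, Krt8 signal was 72022, 83031, 84620, 75627 and 78175 on the 5 DMSO arrays, 72079, 69192, 80860, 71415 and 71178 at 60 uM and 62063, 63037, 64372, 58403 and 66927 at 1000 uM. By 48 h, Krt8 read 79830, 82719, 75213, 70574 and 82235 with DMSO, 79255, 74658, 67757, 69857 and 76900 at 60 uM and 63970, 64603, 62824, 64802 and 64506 at 1000 uM. At 1000 uM every array lay below all DMSO arrays at both times, while the 60 uM arrays overlapped with DMSO. Krt8 fell by 0.32 ± 0.05 at 24 h and 0.28 ± 0.05 at 48 h at 1000 uM (adjusted p = 4.65e-06 and 2.4e-05). At 24 h, Krt18 signal was 63540, 72701, 71686, 63397 and 67475 on the 5 DMSO arrays, 62893, 59280, 69782, 61089 and 58340 at 60 uM and 55498, 55225, 56895, 49955 and 54403 at 1000 uM. By 48 h, Krt18 read 70851, 70884, 65728, 59367 and 67975 with DMSO, 74988, 64717, 59060, 59116 and 65408 at 60 uM and 56500, 57003, 53724, 54453 and 53481 at 1000 uM. The same separation held for Krt18, which fell by 0.32 ± 0.06 and 0.28 ± 0.06 (adjusted p = 5.53e-05 and 0.000193). The brightest probe set of an array reached 95378 to 118603, so both keratins lay in the top of the arrays' range. Under spike-in scaling the Krt8 and Krt18 changes at 1000 uM were -0.09 and -0.09 at 24 h and -0.12 and -0.12 at 48 h and none passed, whereas the Vim changes of -1.81 and -2.51 did.

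Krt19, a keratin of bile duct cells that is below the filter, had mean signals of 278 with DMSO, 174 at 60 uM and 84 at 1000 uM at 48 h. On the log2 scale the last lies under the floor. The floor of a group is the highest mean log2 signal among bacterial control sets with no target in the sample. It differed between groups, from a signal of 22 at 1000 uM at 24 h to 79 at 1000 uM at 48 h. In a fit without the filter, Krt19 was lower at 1000 uM at 48 h with an adjusted p of 0.000348.

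Of 8 other intermediate filament and lamin genes tested, 1 passed as higher and 3 as lower at 1000 uM at each time (50%, against 28.9% of all probe sets called at 24 h and 37.9% at 48 h). Krt23, a type I keratin, rose by 1.52 ± 0.22 at 24 h and 1.13 ± 0.22 at 48 h (adjusted p = 1.14e-06 and 7.84e-05). Lmnb1, which encodes lamin B1 of the nuclear envelope, fell by 0.60 ± 0.09 and 0.41 ± 0.09 (adjusted p = 3.67e-06 and 0.000544). Krt20, a keratin of gut epithelium, fell by 0.60 ± 0.20 at 48 h (adjusted p = 0.0154).

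**Figure D2:**
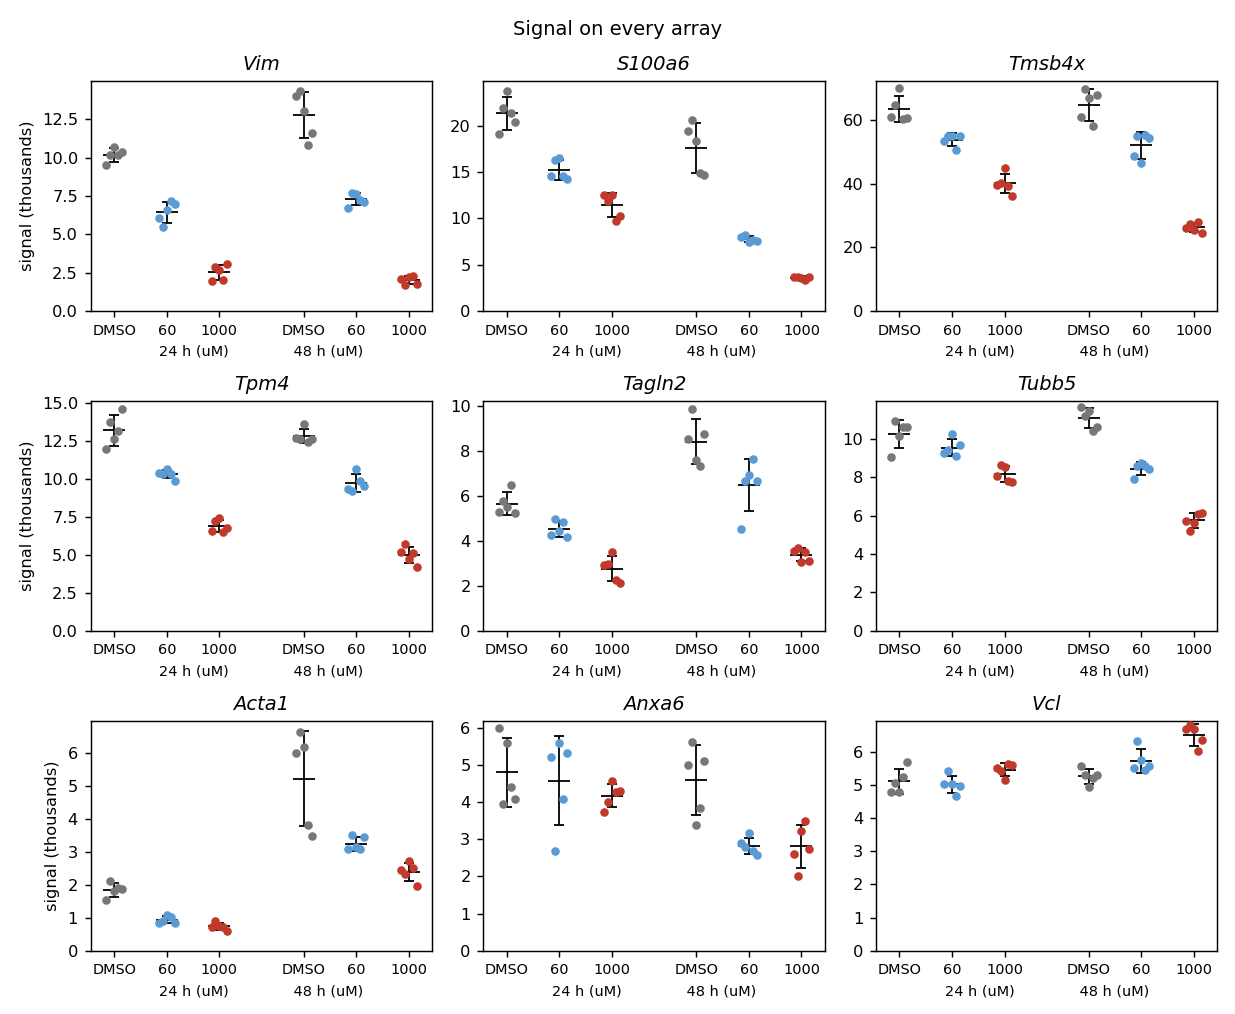
Signal on every array, in units of 1000 on a linear axis from 0, for 9 genes, with dose on the x axis at 24 h and at 48 h. Points are arrays and bars are the mean ± SD of 5 arrays; Vim and S100a6 step down with dose at both times, Acta1 with DMSO is higher at 48 h, and Vcl rises at 1000 uM at 48 h.

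Of the S100 genes, all 3 above the filter passed as lower at 1000 uM at both times, with medians of -0.61 at 24 h and -0.66 at 48 h. All 3 also passed at 60 uM at 48 h. The shares of all probe sets called were 28.9% and 37.9% at 1000 uM and 9.05% at 60 uM at 48 h. S100a6, or calcyclin, a calcium-binding protein raised in proliferating cells, fell most and fell further with time. At 24 h, S100a6 signal was 19124, 21921, 23833, 21449 and 20470 on the 5 DMSO arrays, 14606, 16297, 16568, 14639 and 14266 at 60 uM and 12579, 11896, 12581, 9768 and 10315 at 1000 uM. By 48 h, S100a6 read 19478, 20621, 18352, 14923 and 14705 with DMSO, 7999, 8261, 7435, 7702 and 7577 at 60 uM and 3723, 3676, 3523, 3359 and 3669 at 1000 uM. No dosed array overlapped with DMSO, and the doses did not overlap with each other. The falls were 0.48 ± 0.08 and 1.16 ± 0.08 at 60 uM and 0.91 ± 0.08 and 2.28 ± 0.08 at 1000 uM at 24 and 48 h, the last being 4.86-fold (adjusted p = 6.74e-05, 7.9e-13, 4.57e-11 and 1.51e-21).

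S100a10 is the partner of annexin A2 in a membrane-bound complex. At 24 h, S100a10 signal was 32367, 35906, 38944, 34821 and 36118 on the 5 DMSO arrays, 33705, 32306, 33367, 28482 and 27556 at 60 uM and 25478, 25097, 25501, 20379 and 20932 at 1000 uM. By 48 h, S100a10 read 37486, 37543, 36029, 36264 and 39226 with DMSO, 35926, 30962, 29814, 29646 and 32394 at 60 uM and 24571, 24684, 22759, 23793 and 23422 at 1000 uM. All arrays at 1000 uM lay below all DMSO arrays at both times, with falls of 0.61 ± 0.06 and 0.65 ± 0.06 (adjusted p = 3.49e-09 and 6.06e-10). Annexin A2 (Anxa2) itself fell by 0.55 ± 0.05 and 0.58 ± 0.05 (adjusted p = 3.38e-11 and 5.63e-12). At 24 h, Anxa2 signal was 42964, 49134, 50177, 45387 and 48901 on the 5 DMSO arrays, 42380, 40082, 44943, 40662 and 40307 at 60 uM and 32512, 32838, 33444, 30204 and 32140 at 1000 uM. By 48 h, Anxa2 read 46395, 48860, 46592, 42544 and 49538 with DMSO, 44700, 42177, 38031, 39034 and 43233 at 60 uM and 31899, 31664, 31169, 31413 and 29741 at 1000 uM. Its 1000 uM arrays lay below all others at both times, and at 60 uM its falls of 0.18 ± 0.05 and 0.18 ± 0.05 also passed, with overlap (adjusted p = 0.0142 and 0.0141).

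S100a11, a partner of annexin A1, was higher with time in DMSO and lower with dose. At 24 h, S100a11 signal was 23513, 26010, 29228, 30642 and 26740 on the 5 DMSO arrays, 25336, 28144, 27700, 24023 and 23376 at 60 uM and 24716, 22810, 24485, 23106 and 19817 at 1000 uM. By 48 h, S100a11 read 40425, 41621, 39585, 34803 and 38035 with DMSO, 33207, 33461, 30525, 32410 and 35772 at 60 uM and 23878, 26518, 24088, 24901 and 23602 at 1000 uM. At 48 h no 1000 uM array reached a DMSO array, and at 24 h the groups overlapped. Its falls at 1000 uM were 0.24 ± 0.07 at 24 h and 0.66 ± 0.07 at 48 h (adjusted p = 0.00454 and 5.37e-10). S100a10 gained a 60 uM call at 24 h without 60 uM 24 h replicate 1 or 3 or DMSO 24 h replicate 1 (adjusted p from 0.0319 to 0.0441). S100a10 lost its 60 uM call at 48 h without 60 uM 48 h replicate 4 (adjusted p = 0.0525). S100a11 lost its 60 uM call at 48 h without 60 uM 48 h replicate 3 or DMSO 48 h replicate 1 or 2 (adjusted p from 0.0521 to 0.0651). Under spike-in scaling the 60 uM changes of S100a10 and S100a11 at 48 h were -0.20 and -0.20 and the 1000 uM change of S100a11 at 24 h was -0.02, none of which passed, and the other 1000 uM calls of the 3 genes were kept.

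The 4 other S100 genes tested did not move as a block: at 1000 uM 2 passed as lower and 1 as higher at each time, against the same backgrounds of 28.9% and 37.9%. S100a13, which takes part in export of growth factors, fell by 1.11 ± 0.07 and 1.57 ± 0.07 (adjusted p = 5.07e-14 and 3.49e-18). S100a3 rose by 0.39 ± 0.14 and 1.21 ± 0.14 (adjusted p = 0.0375 and 1.43e-08). S100a4, below the filter, lay under the floor at 1000 uM at 48 h only, where the floor was highest, and did not pass against DMSO without the filter.

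Most annexins fell by 48 h. Of 7, 3 passed as lower at 1000 uM at 24 h and 6 at 48 h, with medians of -0.33 and -0.47. That is 42.9% and 85.7% called, against 28.9% and 37.9% of all probe sets. At 60 uM 1 passed at 24 h and 3 at 48 h (14.3% and 42.9%, against 6.56% and 9.05% of all probe sets). Annexin A6 (Anxa6), a large annexin with a doubled core, did not pass at 24 h and fell at both doses at 48 h. At 24 h, Anxa6 signal was 6006, 3956, 5595, 4403 and 4078 on the 5 DMSO arrays, 5230, 2693, 5592, 4094 and 5321 at 60 uM and 3739, 4010, 4585, 4280 and 4299 at 1000 uM. By 48 h, Anxa6 read 5016, 5632, 3400, 3843 and 5112 with DMSO, 2894, 2786, 3166, 2685 and 2586 at 60 uM and 2597, 2018, 3220, 3500 and 2748 at 1000 uM. All 60 uM arrays at 48 h lay below the DMSO arrays, while the highest 1000 uM array overlapped with the lowest DMSO array. The falls at 48 h were 0.68 ± 0.16 at 60 uM and 0.71 ± 0.16 at 1000 uM (adjusted p = 0.00406 and 0.000588), and the step between the doses was -0.03 ± 0.16 (adjusted p = 0.937). The difference between the times did not pass at either dose (adjusted p = 0.51 and 0.177).

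Annexin A5 (Anxa5) binds phosphatidylserine. At 24 h, Anxa5 signal was 5378, 7296, 8304, 8168 and 8412 on the 5 DMSO arrays, 7943, 8656, 7414, 6909 and 5694 at 60 uM and 6181, 5778, 6108, 5118 and 6483 at 1000 uM. By 48 h, Anxa5 read 8220, 8700, 8071, 8307 and 8398 with DMSO, 7252, 6075, 5825, 6100 and 7093 at 60 uM and 5271, 5126, 4869, 5406 and 5134 at 1000 uM. At 48 h the 3 groups did not overlap. It fell by 0.37 ± 0.10 at 60 uM and 0.69 ± 0.10 at 1000 uM at 48 h (adjusted p = 0.0106 and 5.3e-07), and by 0.33 ± 0.10 at 1000 uM at 24 h (adjusted p = 0.01). Anxa4 fell by 0.45 ± 0.05 and 0.37 ± 0.05 at 1000 uM (adjusted p = 4.38e-08 and 1.44e-06). Anxa3 and Anxa7 passed only at 48 h at 1000 uM, with falls of 0.47 ± 0.09 and 0.38 ± 0.05 (adjusted p = 5.4e-05 and 3.03e-07), and neither passed in its second brightest probe set. Anxa1 did not pass at any dose, with changes of -0.44 ± 0.18 and -0.39 ± 0.18 at 1000 uM (adjusted p = 0.0733 and 0.0941). Anxa2 lost its 60 uM call at 24 h without DMSO 24 h replicate 3 (adjusted p = 0.0525). Anxa2 lost its 60 uM call at 48 h without 60 uM 48 h replicate 3 or 4 (adjusted p from 0.0534 to 0.0616). Anxa4 gained a 60 uM call at 24 h without DMSO 24 h replicate 1 (adjusted p = 0.0149). Anxa1 gained a 1000 uM call at 24 h without 1000 uM 24 h replicate 1 (adjusted p = 0.0207). Anxa1 gained a 1000 uM call at 48 h without DMSO 48 h replicate 1 (adjusted p = 0.0431). Spike-in scaling ended the 1000 uM calls of Anxa4 at both times, with changes of -0.23 and -0.20, of Anxa5 at 24 h, at -0.10, and of Anxa7 at 48 h, at -0.22. It also ended the 60 uM calls of Anxa2, at -0.06 and -0.14, and of Anxa5 at 48 h, at -0.34.

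Galectin-3 (Lgals3), a lectin that binds beta-galactosides, was the 1 galectin above the filter. At 24 h, Lgals3 signal was 16979, 17874, 20654, 17602 and 19384 on the 5 DMSO arrays, 18243, 18261, 19898, 16862 and 17208 at 60 uM and 15726, 15408, 15384, 15020 and 15165 at 1000 uM. By 48 h, Lgals3 read 18182, 16553, 17444, 17078 and 18544 with DMSO, 16838, 16952, 15600, 16038 and 18505 at 60 uM and 12539, 12165, 11848, 12332 and 11597 at 1000 uM. The 1000 uM arrays lay below all DMSO and all 60 uM arrays at both times. It fell by 0.27 ± 0.05 and 0.54 ± 0.05 at 1000 uM (adjusted p = 7.7e-05 and 1.24e-10), and at 60 uM the changes of -0.03 ± 0.05 and -0.07 ± 0.05 did not pass. Under spike-in scaling its 24 h change at 1000 uM was -0.04 and did not pass. Of 4 other annexin and galectin genes tested, 1 passed at 1000 uM, Anxa8 at 48 h, with a fall of 0.53 ± 0.08 (adjusted p = 7.98e-07). That is 0% called at 24 h and 25% at 48 h, below the 28.9% and 37.9% of all probe sets called. Galectin-1 (Lgals1) lay under the floor in 4 of 6 groups.

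The tubulins fell at 1000 uM, and fell further by 48 h. All 3 above the filter, which encode beta-tubulins, passed as lower at 1000 uM at both times, with medians of -0.33 at 24 h and -0.85 at 48 h. At 60 uM, 0 of 3 passed at 24 h in the limma fit, with an unadjusted p under 0.05 in 1 of 3, and all 3 passed at 48 h. The shares of all probe sets called at 24 and 48 h were 28.9% and 37.9% at 1000 uM and 6.56% and 9.05% at 60 uM. The main beta-tubulin gene of many cells, Tubb5, shows the pattern. At 24 h, Tubb5 signal was 9060, 10916, 10163, 10614 and 10598 on the 5 DMSO arrays, 9244, 9428, 10240, 9112 and 9702 at 60 uM and 8054, 8647, 8553, 7825 and 7743 at 1000 uM. By 48 h, Tubb5 read 11662, 11205, 11464, 10424 and 10647 with DMSO, 7916, 8579, 8756, 8563 and 8449 at 60 uM and 5732, 5192, 5608, 6113 and 6119 at 1000 uM. At 48 h the 3 groups were fully apart, and at 24 h the 60 uM arrays overlapped with DMSO. Tubb5 fell by 0.33 ± 0.05 at 24 h and 0.95 ± 0.05 at 48 h at 1000 uM, and by 0.39 ± 0.05 at 60 uM at 48 h (adjusted p = 5.42e-06, 2.46e-16 and 1.43e-06). The other Tubb5 probe set above the filter passed as lower at both doses and times, by 0.32 ± 0.07 and 0.75 ± 0.07 at 24 h (60 and 1000 uM) and by 0.50 ± 0.07 and 1.17 ± 0.07 at 48 h, so its 24 h falls were larger (adjusted p at 60 uM, 24 h = 0.00146, limma).

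Tubb2a gave the smallest SE of the tubulins. At 24 h, Tubb2a signal was 36291, 38746, 38126, 35896 and 38035 on the 5 DMSO arrays, 37256, 35024, 35050, 33378 and 33144 at 60 uM and 26958, 25586, 26669, 23572 and 23184 at 1000 uM. By 48 h, Tubb2a read 37277, 34831, 35640, 36981 and 38470 with DMSO, 33053, 29877, 32116, 31246 and 30322 at 60 uM and 19167, 21162, 19693, 20861 and 20809 at 1000 uM. Its 1000 uM arrays lay below every other array of the same time. It fell by 0.57 ± 0.04 and 0.85 ± 0.04 at 1000 uM (adjusted p = 1.54e-12 and 4.27e-17) and by 0.23 ± 0.04 at 60 uM at 48 h (adjusted p = 0.000422). Tubb6 was the most scattered of the 3. At 24 h, Tubb6 signal was 10157, 9085, 10914, 8684 and 9884 on the 5 DMSO arrays, 8449, 8195, 9465, 7864 and 9013 at 60 uM and 8880, 6448, 8579, 8541 and 6927 at 1000 uM. By 48 h, Tubb6 read 9628, 9763, 9831, 10520 and 10340 with DMSO, 8821, 7447, 7480, 6035 and 9888 at 60 uM and 5489, 6370, 6479, 5764 and 5775 at 1000 uM. Its arrays overlapped with DMSO except at 1000 uM at 48 h, where it had fallen by 0.75 ± 0.09 (adjusted p = 7.46e-08). Tubb6 lost its 1000 uM call at 24 h without 1000 uM 24 h replicate 2 (adjusted p = 0.0523). Tubb6 lost its 60 uM call at 48 h without 60 uM 48 h replicate 4 (adjusted p = 0.0656). Under spike-in scaling, Tubb5 and Tubb6 were at -0.10 and -0.09 at 1000 uM at 24 h and Tubb2a and Tubb6 at -0.19 and -0.32 at 60 uM at 48 h and did not pass, while all 3 passed at 1000 uM at 48 h.

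Of 11 other tubulins and microtubule proteins tested, 4 passed as lower at 1000 uM at 24 h (36.4%, against 28.9% of all probe sets called), and 6 as lower and 1 as higher at 48 h (63.6% against 37.9%). Map4, a protein that stabilises microtubules, fell by 0.71 ± 0.10 and 0.96 ± 0.10 (adjusted p = 3.76e-07 and 6.27e-10). Tbca, a chaperone of tubulin folding, rose by 0.18 ± 0.05 at 48 h (adjusted p = 0.00517).

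The actin cross-linkers, tropomyosins and myosins fell as the largest single group: 9 of 10 passed as lower at 1000 uM at each time, with medians of -0.58 at 24 h and -0.63 at 48 h. At 60 uM 3 passed at 24 h and 5 at 48 h. That is 90% called at 1000 uM at each time, against 28.9% and 37.9% of all probe sets. For 60 uM it is 30% and 50%, against 6.56% and 9.05%. Tropomyosin 4 (Tpm4), which lies along actin filaments and stiffens them, separated completely by dose. At 24 h, Tpm4 signal was 11931, 13726, 12583, 13126 and 14606 on the 5 DMSO arrays, 10404, 10302, 10620, 10297 and 9860 at 60 uM and 6588, 7197, 7393, 6528 and 6755 at 1000 uM. By 48 h, Tpm4 read 12672, 12641, 13623, 12431 and 12644 with DMSO, 9327, 9195, 10639, 9835 and 9537 at 60 uM and 5161, 5698, 4716, 5128 and 4218 at 1000 uM. It fell by 0.35 ± 0.06 and 0.40 ± 0.06 at 60 uM and by 0.94 ± 0.06 and 1.37 ± 0.06 at 1000 uM (adjusted p = 9.98e-05, 1.12e-05, 2.17e-14 and 7.04e-19), so that the 48 h signal at 1000 uM was 2.58-fold lower. The 60 uM call at 24 h was lost in the second brightest probe set and under spike-in scaling, where the change was -0.23.

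Transgelin-2 (Tagln2), a small actin-binding protein, rose with time in DMSO and fell with dose. At 24 h, Tagln2 signal was 5283, 5777, 5524, 6508 and 5252 on the 5 DMSO arrays, 4273, 4964, 4436, 4853 and 4164 at 60 uM and 2953, 2997, 3531, 2253 and 2147 at 1000 uM. By 48 h, Tagln2 read 8556, 9866, 7604, 7334 and 8753 with DMSO, 4526, 6694, 6947, 7645 and 6698 at 60 uM and 3569, 3705, 3054, 3516 and 3113 at 1000 uM. At 1000 uM every array lay below all others of their time, and at 48 h 1 of the 60 uM arrays, at 4526, stood well below the rest of its group. Tagln2 fell by 1.05 ± 0.12 and 1.31 ± 0.12 at 1000 uM (adjusted p = 9.2e-09 and 4.98e-11). At 60 uM the change was -0.32 ± 0.12 at 24 h, which did not pass, and a fall of 0.39 ± 0.12 at 48 h (adjusted p = 0.112 and 0.0315). Tagln2 lost its 60 uM call at 48 h without 60 uM 48 h replicate 1 or DMSO 48 h replicate 1, 2 or 5 (adjusted p from 0.0635 to 0.147).

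Filamin A (Flna) cross-links actin into networks and ties them to membrane receptors. At 24 h, Flna signal was 1740, 2227, 2186, 2177 and 2382 on the 5 DMSO arrays, 1363, 1387, 1649, 1235 and 1107 at 60 uM and 969, 1014, 1077, 951 and 883 at 1000 uM. By 48 h, Flna read 2286, 2660, 2284, 2255 and 1496 with DMSO, 1749, 1846, 1900, 1342 and 1666 at 60 uM and 830, 1240, 1066, 991 and 745 at 1000 uM. All arrays at 1000 uM lay below all DMSO arrays at both times, and 1 DMSO array at each time, at 1740 and 1496, lay well under its group. Flna fell by 0.67 ± 0.13 at 60 uM at 24 h and by 1.13 ± 0.13 and 1.17 ± 0.13 at 1000 uM (adjusted p = 0.000952, 3.68e-08 and 1.16e-08). Its 60 uM change at 48 h was -0.35 ± 0.13 and did not pass (adjusted p = 0.107). Flna gained a 60 uM call at 48 h without DMSO 48 h replicate 5 (adjusted p = 0.0105).

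The other genes of this group fell by less at 1000 uM. Non-muscle myosin IIA (Myh9), the motor of stress fibres, fell by 0.74 ± 0.07 and 0.58 ± 0.07, and alpha-actinin 1 (Actn1), which bundles filaments, by 0.69 ± 0.10 and 0.69 ± 0.10. Falls of Tpm1, Tpm3, Actn4 and calponin 3 (Cnn3) were 0.47, 0.35, 0.39 and 0.31 at 24 h and 0.53, 0.51, 0.31 and 0.69 at 48 h. Adjusted p-values of these 6 genes at 1000 uM ranged up to 0.00425. Other probe sets of Tpm1 and Tpm3 were split. The second brightest sets also passed as lower at 1000 uM, with changes of -0.36 and -0.61 for Tpm1 and -0.52 and -0.75 for Tpm3. Several further sets did not pass at either time. The brightest of these had changes of 0.10 and -0.04 for Tpm1 and 0.02 and -0.03 for Tpm3. Dimmer ones had -0.18 and 0.11 for Tpm1, and -0.18 and -0.15, 0.31 and -0.02, and -0.10 and -0.57 for Tpm3. The remaining sets above the filter passed as lower at both times, except a Tpm3 set that passed at 48 h only, at -0.30 and -0.83. Myl9, a myosin regulatory light chain, did not pass, and its SE of 0.41 was the largest of the 39. Myh9 lost its 60 uM call at 48 h without 60 uM 48 h replicate 3, 4 or 5 or DMSO 48 h replicate 1 or 2 (adjusted p from 0.052 to 0.149). Tpm1 lost its 60 uM call at 48 h without 60 uM 48 h replicate 1, 2, 3, 4 or 5 or DMSO 48 h replicate 1, 2, 3 or 5 (adjusted p from 0.0635 to 0.118). Actn1 gained a 60 uM call at 48 h without DMSO 48 h replicate 4 (adjusted p = 0.0271). Actn4 gained a 60 uM call at 24 h without DMSO 24 h replicate 1 or 4 (adjusted p from 0.0257 to 0.0391). Spike-in scaling ended the 1000 uM calls of Actn4 at both times, with changes of -0.16 and -0.15, and of Tpm3 and Cnn3 at 24 h, at -0.12 and -0.08. It also ended the 60 uM calls of Myh9 at 24 and 48 h, at -0.17 and -0.18, and of Tagln2, Tpm1 and Cnn3 at 48 h, at -0.35, -0.08 and -0.33. Tagln, a smooth muscle gene, lay under the floor in all 6 groups.

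**Figure D3:**
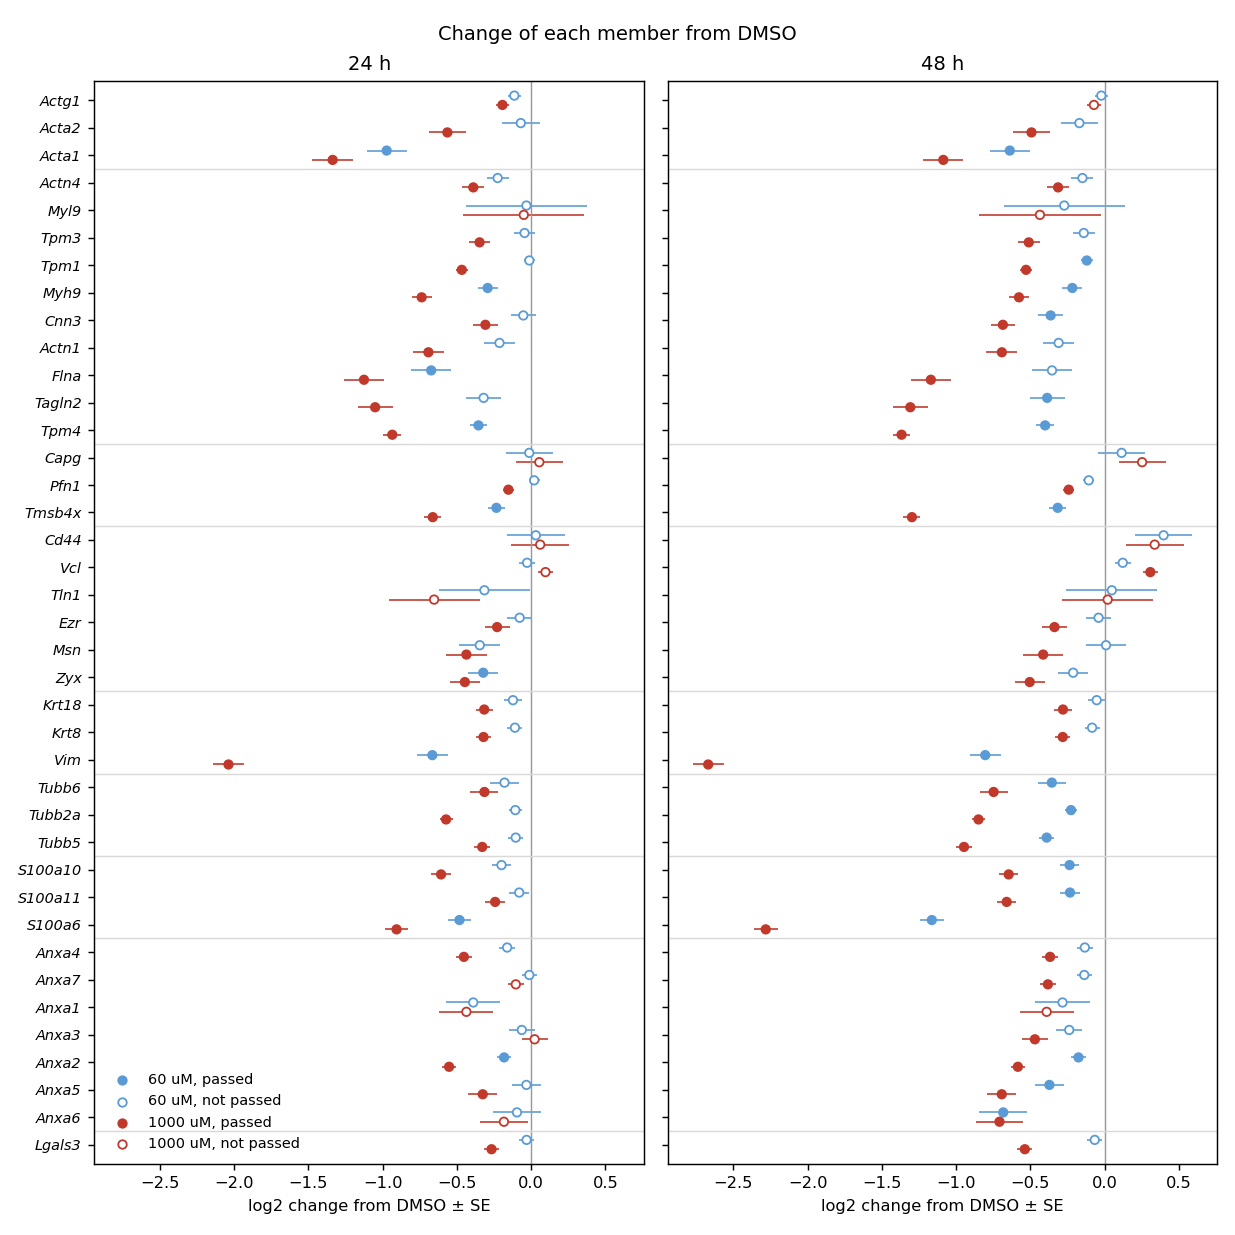
Log2 change from DMSO ± SE for each of 39 genes, grouped by role, at 24 h (left) and 48 h (right), with 60 uM in blue and 1000 uM in red. Filled points passed an adjusted p of 0.05 and open points did not; nearly all filled points lie left of 0, and Vcl at 1000 uM at 48 h lies to the right.

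Among the actins, Acta1 moved most and Actg1 least. All 3 measured actins passed as lower at 1000 uM at 24 h, and Acta1 and Acta2 did at 48 h, with medians of -0.56 and -0.49. That is 100% and 66.7% called, against 28.9% and 37.9% of all probe sets. Acta1, the alpha-actin of skeletal muscle, is 1 of the 2 genes with a CArG box in its promoter. At 24 h, Acta1 signal was 1529, 2111, 1795, 1906 and 1870 on the 5 DMSO arrays, 841, 909, 1094, 1011 and 838 at 60 uM and 709, 888, 732, 722 and 604 at 1000 uM. By 48 h, Acta1 read 5993, 6628, 6169, 3818 and 3487 with DMSO, 3070, 3513, 3133, 3074 and 3436 at 60 uM and 2435, 2320, 2732, 2496 and 1963 at 1000 uM. With DMSO it rose by 1.46 ± 0.14 on the log2 scale from 24 to 48 h (adjusted p = 2.08e-09), and at 48 h the lowest DMSO array, at 3487, overlapped with the highest 60 uM array, at 3513. It fell by 0.97 ± 0.14 and 0.64 ± 0.14 at 60 uM and by 1.34 ± 0.14 and 1.09 ± 0.14 at 1000 uM (adjusted p = 4.4e-06, 0.00138, 1.23e-09 and 5.89e-08).

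Acta2, the alpha-actin of smooth muscle and of activated stellate cells, passed at the higher dose. At 24 h, Acta2 signal was 1213, 1578, 1160, 1378 and 1181 on the 5 DMSO arrays, 1107, 1197, 1128, 1270 and 1497 at 60 uM and 581, 1026, 849, 999 and 1013 at 1000 uM. By 48 h, Acta2 read 1264, 1449, 1578, 1270 and 1434 with DMSO, 1027, 1256, 1233, 1438 and 1278 at 60 uM and 947, 1153, 906, 972 and 994 at 1000 uM. The 1000 uM arrays lay below all DMSO arrays at both times, with falls of 0.56 ± 0.13 and 0.49 ± 0.13 (adjusted p = 0.000679 and 0.00208), and at 60 uM the changes were -0.07 ± 0.13 and -0.17 ± 0.13.

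Actg1, the gamma-actin of the general cytoplasm, also has a CArG box and changed least of the actins. At 24 h, Actg1 signal was 63893, 69768, 73223, 63653 and 69040 on the 5 DMSO arrays, 63062, 59492, 67279, 60873 and 63085 at 60 uM and 56618, 59606, 61559, 55904 and 63206 at 1000 uM. By 48 h, Actg1 read 63818, 67179, 61206, 60438 and 68406 with DMSO, 66246, 65931, 59740, 59553 and 64631 at 60 uM and 61238, 61700, 60847, 61523 and 59816 at 1000 uM. Only at 24 h did the 1000 uM arrays lie below all DMSO arrays. Actg1 fell by 0.19 ± 0.04 at 24 h (adjusted p = 0.000916) and its 48 h change was -0.07 ± 0.04 (adjusted p = 0.217). Beta-actin, which has no probe set of its own here, had a mean signal in the array's 3' control set of 62027, 58420 and 51149 at 24 h and 60751, 57447 and 54471 at 48 h with DMSO, 60 uM and 1000 uM. Under spike-in scaling Actg1 turned to 0.03 at 24 h, and the changes of Acta2 were -0.34 and -0.33 and did not pass, while those of Acta1 did. The Actg1 call at 24 h was also lost with median centring, where the change was -0.13, and in its second brightest probe set, where the fall was larger but less precise, at -0.31 ± 0.14 (adjusted p = 0.101, limma). At 48 h that dimmer set had a change of -0.32 ± 0.14, which did not pass either (adjusted p = 0.0706, limma). The brightest set of Actg1 lay in the top of the arrays' range, as the keratins did.

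Among proteins that bind actin monomers or filament ends, 2 of 3 passed as lower at 1000 uM at each time. That is 66.7% called, against 28.9% of all probe sets at 24 h and 37.9% at 48 h. The medians were -0.15 and -0.24, the first of which turned to 0.074 under spike-in scaling. Thymosin beta-4 (Tmsb4x), which holds actin monomers in reserve, fell most. At 24 h, Tmsb4x signal was 61226, 64956, 70119, 60496 and 60696 on the 5 DMSO arrays, 53622, 55140, 55172, 50601 and 55136 at 60 uM and 39614, 40431, 44867, 39473 and 36328 at 1000 uM. By 48 h, Tmsb4x read 61155, 69788, 67168, 58101 and 68001 with DMSO, 48948, 55245, 46482, 55282 and 54562 at 60 uM and 26068, 27276, 25554, 28162 and 24664 at 1000 uM. The groups were completely apart at both times. It fell by 0.23 ± 0.06 and 0.32 ± 0.06 at 60 uM and by 0.66 ± 0.06 and 1.30 ± 0.06 at 1000 uM (adjusted p = 0.00768, 0.000184, 3.25e-11 and 7.8e-19), so its signal at 48 h was 2.46-fold lower at 1000 uM.

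Profilin 1 (Pfn1), which feeds monomers to growing filaments, changed far less. At 24 h, Pfn1 signal was 36161, 39279, 41156, 37712 and 39585 on the 5 DMSO arrays, 38251, 39398, 42532, 38113 and 38334 at 60 uM and 36577, 34394, 36070, 32953 and 34332 at 1000 uM. By 48 h, Pfn1 read 39263, 38821, 37338, 38477 and 39885 with DMSO, 37618, 37021, 35332, 33931 and 36138 at 60 uM and 31995, 33003, 32702, 32356 and 33861 at 1000 uM. At 24 h the 1000 uM arrays overlapped with DMSO at the edge, and at 48 h they lay below. Pfn1 fell by 0.15 ± 0.04 and 0.24 ± 0.04 at 1000 uM (adjusted p = 0.00193 and 3.46e-06). Capg, a capping protein of filament ends, had changes of 0.06 ± 0.16 and 0.25 ± 0.16 and did not pass. Pfn1 gained a 60 uM call at 48 h without 60 uM 48 h replicate 1 (adjusted p = 0.0478). Spike-in scaling turned Pfn1 to 0.07 at 24 h and ended its call at 48 h, at -0.08, while the 1000 uM calls of Tmsb4x were kept and its 60 uM changes of -0.11 and -0.28 did not pass.

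The adhesion and membrane linkers went in both directions. Of 6, 3 passed as lower at 1000 uM at 24 h, and 3 as lower and 1 as higher at 48 h. That is 50% and 66.7% called, against 28.9% and 37.9% of all probe sets. The medians were -0.33 and -0.16, the second of which turned to 0.004 under spike-in scaling. Vinculin (Vcl) joins integrin and cadherin junctions to actin. At 24 h, Vcl signal was 4808, 5083, 4791, 5253 and 5711 on the 5 DMSO arrays, 5032, 5419, 5032, 4690 and 4970 at 60 uM and 5521, 5436, 5156, 5650 and 5619 at 1000 uM. By 48 h, Vcl read 5582, 5308, 4942, 5225 and 5298 with DMSO, 5527, 6353, 5770, 5469 and 5590 at 60 uM and 6700, 6822, 6712, 6040 and 6357 at 1000 uM. At 48 h every 1000 uM array lay above every DMSO array. Vcl rose there by 0.31 ± 0.05, or 23.8% (adjusted p = 1.25e-05), and from 60 to 1000 uM by 0.19 ± 0.05 (adjusted p = 0.00751). Its change at 24 h was 0.10 ± 0.05 and did not pass (adjusted p = 0.179). Vcl gained a 1000 uM call at 24 h without DMSO 24 h replicate 5 (adjusted p = 0.0492). Under spike-in scaling the 24 h change was 0.32 and passed. Of 2 other Vcl probe sets above the filter, the dimmer rose at 24 h, by 0.34 ± 0.10 (adjusted p = 0.00831), and had a 48 h change of 0.19 ± 0.10 that did not pass, and the brighter rose at 48 h, by 0.33 ± 0.09 (adjusted p = 0.00464).

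Zyxin (Zyx), a protein of focal adhesions and stress fibres, went the other way. At 24 h, Zyx signal was 1901, 1763, 2058, 1844 and 1652 on the 5 DMSO arrays, 1609, 1332, 1630, 1602 and 1228 at 60 uM and 1587, 1360, 1490, 1112 and 1253 at 1000 uM. By 48 h, Zyx read 1994, 1985, 2191, 1742 and 1731 with DMSO, 1727, 1487, 1645, 1659 and 1791 at 60 uM and 1262, 1452, 1510, 1112 and 1481 at 1000 uM. At 1000 uM every array lay below all DMSO arrays at both times. Zyx fell by 0.45 ± 0.10 and 0.50 ± 0.10 at 1000 uM and by 0.32 ± 0.10 at 60 uM at 24 h (adjusted p = 0.000778, 0.000132 and 0.0495). Zyx lost its 60 uM call at 24 h without 60 uM 24 h replicate 2 or 5 or DMSO 24 h replicate 1, 2, 3 or 4 (adjusted p from 0.0651 to 0.166).

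Ezrin (Ezr) and moesin (Msn) tie actin to the plasma membrane. At 24 h, Ezr signal was 1186, 1286, 1304, 1518 and 1154 on the 5 DMSO arrays, 1214, 1130, 1176, 1234 and 1340 at 60 uM and 1128, 1166, 992, 1076 and 1123 at 1000 uM. By 48 h, Ezr read 1724, 1758, 1669, 1645 and 1517 with DMSO, 1475, 1776, 1546, 1533 and 1766 at 60 uM and 1542, 1288, 1234, 1137 and 1406 at 1000 uM. Ezrin rose with time in DMSO, and its 1000 uM arrays overlapped with DMSO. It fell by 0.23 ± 0.08 at 24 h and 0.34 ± 0.08 at 48 h at 1000 uM (adjusted p = 0.04 and 0.0017). At 24 h, Msn signal was 790, 869, 1204, 1045 and 794 on the 5 DMSO arrays, 648, 774, 750, 764 and 720 at 60 uM and 628, 752, 817, 598 and 657 at 1000 uM. By 48 h, Msn read 577, 812, 682, 747 and 632 with DMSO, 653, 782, 840, 497 and 732 at 60 uM and 494, 466, 491, 608 and 523 at 1000 uM. Moesin was lower with time in DMSO, and its groups overlapped too. It fell by 0.44 ± 0.14 and 0.41 ± 0.14 at 1000 uM (adjusted p = 0.0146 and 0.0162). Ezr lost its 1000 uM call at 24 h without 1000 uM 24 h replicate 3, 4 or 5 or DMSO 24 h replicate 2, 3 or 4 (adjusted p from 0.0511 to 0.154). Msn lost its 1000 uM call at 24 h without DMSO 24 h replicate 3 (adjusted p = 0.0669). Msn lost its 1000 uM call at 48 h without DMSO 48 h replicate 2 (adjusted p = 0.0556). Talin 1 (Tln1), which activates integrins, and the hyaluronan receptor Cd44 did not pass against DMSO at either dose. Tln1 changed by -0.65 at 1000 uM at 24 h, the lowest value of the 6 linkers, and by 0.02 at 48 h. Its difference between the times, 0.67, did not pass either. The Cd44 change at 1000 uM at 48 h was 0.34 ± 0.19, and under spike-in scaling it was 0.50 and passed as higher. Tln1 gained a 1000 uM call at 24 h without 1000 uM 24 h replicate 2 (adjusted p = 0.0409). Both Msn calls were also lost in its second brightest probe set. Spike-in scaling ended the calls of Zyx at 24 h, at -0.20 and -0.22 for 60 and 1000 uM, and the 1000 uM calls of Ezr, at -0.00 and -0.17, and of Msn, at -0.21 and -0.25, and kept the rise of Vcl.

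Around these linkers, 13 integrin and focal adhesion genes were tested, and at 1000 uM 5 passed as lower and 2 as higher at each time (53.8%, against 28.9% and 37.9% of all probe sets called). Tensin 1 (Tns1), which binds integrin tails, rose by 1.16 ± 0.12 and 0.93 ± 0.12 (adjusted p = 3.67e-09 and 1.86e-07). Paxillin (Pxn), an adhesion scaffold, fell by 0.61 ± 0.12 and 0.50 ± 0.12 (adjusted p = 0.000145 and 0.00108). Vcl and Tns1 were thus higher at 1000 uM at 48 h while Zyx and Pxn were lower.

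Of 32 other actin regulators tested, 13 passed as lower and 4 as higher at 1000 uM at 24 h, and 18 and 5 at 48 h (53.1% against 28.9% of all probe sets called, and 71.9% against 37.9%). Pdlim1, an adaptor of alpha-actinin, fell by 0.50 ± 0.06 and 0.90 ± 0.06, and the membrane skeleton protein Add1 by 0.67 ± 0.09 and 0.74 ± 0.09. Gelsolin (Gsn), which severs filaments, rose by 0.43 ± 0.11 and 0.34 ± 0.11. Adjusted p-values of these 3 genes ranged up to 0.0156.

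The fall at 1000 uM was deeper at 48 h than at 24 h for 12 of the 39 genes, and for 0 it was shallower in the limma fit (30.8% called against a background of 8.29% called and 4.12% called lower). Of genes with a positive difference, 1 had an unadjusted p under 0.05, Vcl, which rose. S100a6 had the largest difference, -1.38 ± 0.11 on the log2 scale (adjusted p = 4.62e-10), followed by Tmsb4x at -0.64 ± 0.08, Vim at -0.63 ± 0.15 and Tubb5 at -0.62 ± 0.07 (adjusted p = 1.61e-06, 0.00428 and 5.6e-07). All 3 tubulins were among the 12, with Tubb2a at -0.28 ± 0.06 and Tubb6 at -0.43 ± 0.13. The others were Anxa3, Tpm4, S100a11, Cnn3, Anxa7 and Lgals3, with differences between -0.49 and -0.27. Cnn3 lost its difference between the times at 1000 uM without any 1 of 13 of the 20 arrays (adjusted p from 0.0511 to 0.068). Tubb6 lost its difference between the times at 1000 uM without any 1 of 11 of the 20 arrays (adjusted p from 0.0501 to 0.0834). Spike-in scaling kept 7 of the 12 calls. Those of Anxa7, Cnn3, Lgals3, Tubb2a and Tubb6 did not pass under it, although the 5 differences were larger there, at -0.34, -0.44, -0.34, -0.34 and -0.50. In the second brightest probe set the differences of Tpm4 and Anxa7 did not pass and that of Anxa3 turned to 0.094. At 60 uM 1 gene differed between the times, S100a6 at -0.68 ± 0.11 (adjusted p = 0.00315), which is 2.56% of the 39 against 0.0859% of all probe sets called and 0.0483% called lower.

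No actin passed for a difference between the times, with differences of 0.25 ± 0.19, 0.07 ± 0.18 and 0.12 ± 0.06 for Acta1, Acta2 and Actg1, and no linker passed (adjusted p = 0.0762 for Vcl). Vcl gained a difference between the times at 1000 uM without 1000 uM 48 h replicate 4 or DMSO 24 h replicate 3 (adjusted p from 0.0465 to 0.0498). Keratins 8 and 18 had differences of 0.04 ± 0.07 and 0.04 ± 0.08.

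**Figure D4:**
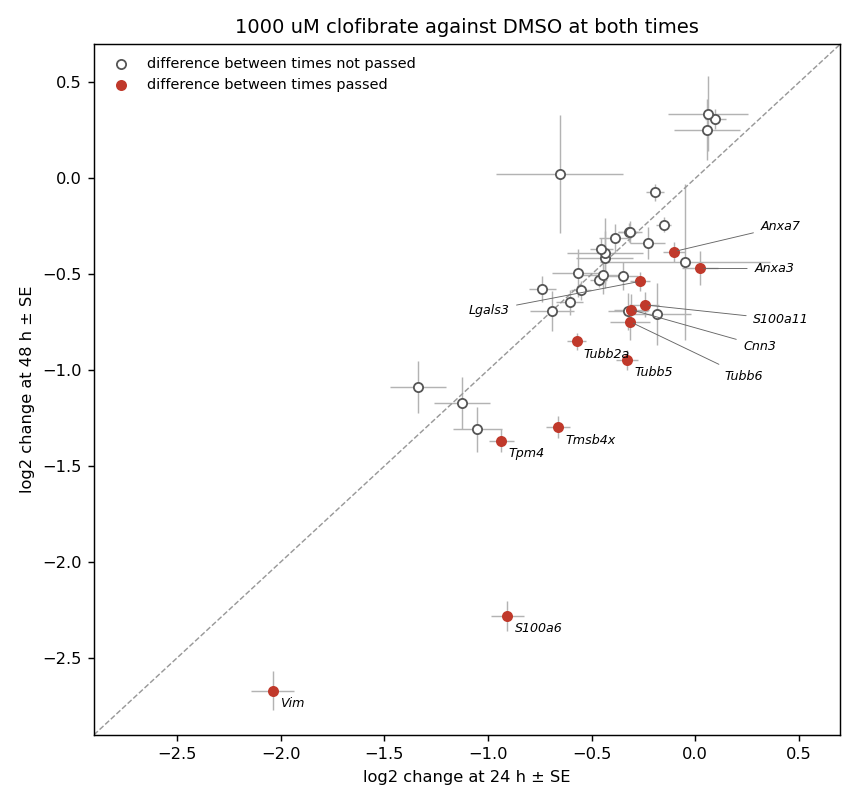
Log2 change ± SE at 1000 uM against DMSO at 24 h (x axis) and at 48 h (y axis) for 39 genes, with the line of equal change dashed. Red points, named, are the 12 genes whose change differed between the times, and all lie below the line; S100a6 and Vim lie farthest from 0.

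In the DMSO cultures themselves, 9 of the 39 genes changed from 24 to 48 h (23.1% against 6.94% of all probe sets), 7 up and 2 down, where 3.88% of all were called higher and 3.07% lower. Those that rose were Acta1 by 1.46 ± 0.14, Tagln2 by 0.57 ± 0.12, S100a11 by 0.52 ± 0.07, Anxa3 by 0.51 ± 0.09, Ezr by 0.37 ± 0.08, Cnn3 by 0.33 ± 0.08 and Tpm1 by 0.21 ± 0.04. Those that fell were Msn by 0.44 ± 0.14 and S100a6 by 0.29 ± 0.08 (adjusted p = 0.0481 and 0.0214). Msn lost its call over time in DMSO without DMSO 24 h replicate 2, 3 or 4 or DMSO 48 h replicate 1, 3, 4 or 5 (adjusted p from 0.0522 to 0.166). S100a6 lost its call over time in DMSO without DMSO 24 h replicate 2 or 3 or DMSO 48 h replicate 4 or 5 (adjusted p from 0.051 to 0.0851). Vim gained a call over time in DMSO without DMSO 48 h replicate 4 (adjusted p = 0.0274). The 7 rises were kept under every scaling tried and both falls were lost under spike-in scaling. The 1000 uM arrays of S100a11 and Tagln2 at 48 h thus lay below a DMSO level that had risen, at 24597 and 3391 against 27226 and 5669 with DMSO at 24 h. For Cnn3 and Tpm1 too, the 1000 uM changes at 48 h, -0.69 and -0.53, were larger than the rises in DMSO. For Acta1, Anxa3 and Ezr these changes were smaller than the rises, at -1.09, -0.47 and -0.34. Their 1000 uM level at 48 h was thus not below that of DMSO at 24 h.

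Of the 39 genes, 11 had another probe set above the filter, which gave 96 pairs over the 4 comparisons with DMSO. In 26 pairs both passed in the same direction, in 43 neither, in 24 the brightest alone, in 3 the other alone, and in 0 the directions of 2 calls were opposite.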

How the data were processed

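RNA of 30 wells was measured on 1 Affymetrix rat array each, with 5 arrays in each of 6 groups. The authors deposited MAS5 signal intensity values, per the submitters' processing notes; the sources used here name no MAS5 version. Precision is limited by how many arrays each group has. Control sets were left out, log2 was taken, and probe sets whose mean log2 signal passed its 40th percentile (signal 255) were kept. All 30 arrays were fitted together in limma 3.58.1 under R 4.3.3 (group means, eBayes with an intensity trend), with Benjamini-Hochberg adjustment within each of 9 comparisons and a threshold of 0.05; every adjusted p printed comes from such a fit. The fit was tested on simulated data. Genes were named from GEO's platform table: 20826 probe sets had 1 symbol, 436 several and 9780 none. Values on every array are given for up to 3 genes of each role group, by largest change at 1000 uM among those that passed there, and for genes against their group. The members and lists were chosen with earlier results of these data known. Replicate numbers follow deposit order. Alternatives were no filter, a stricter filter, median centring, quantile and spike-in scaling, an added constant, the compared groups alone, no trend, the second brightest probe set, array weights, leaving out each array and, chosen after seeing the data, a block for the round of running numbers in the titles. The result of 1 list of related genes is not reported here.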

Additional observations from a re-analysis of the deposited data

Results flagged for a closer look

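Among 25 genes in 6 groups each, 5 of 150 groups of 5 arrays held an outlying array. Its gap to the next array exceeded 0.71 of the group's range on the log2 scale, and chance gives about 1 in 20 groups. The signals named below are on the linear scale. Flna had a low DMSO array at each time, replicate 1 at 24 h with a signal of 1740 and replicate 5 at 48 h with 1496. Tpm4 had a high DMSO array at 48 h, replicate 3 with 13623. Tagln2 had a low 60 uM array at 48 h, replicate 1 with 4526, and Krt8 a high 60 uM array at 24 h, replicate 3 with 80860.

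Changes from DMSO that differed between 24 and 48 h by limma's test of the difference were all deeper at 48 h. At 60 uM the difference on the log2 scale was -0.68 for S100a6. At 1000 uM it was -1.38 for S100a6, -0.64 for Tmsb4x, -0.63 for Vim and -0.62 for Tubb5. It was -0.49 for Anxa3, -0.43 for Tpm4, -0.43 for Tubb6, -0.42 for S100a11 and -0.38 for Cnn3. It was -0.28 for Tubb2a, -0.28 for Anxa7 and -0.27 for Lgals3.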

How the results depend on the processing

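Spike-in scaling lowered the counts of genes called against DMSO to 4 and 14 at 24 h (60 and 1000 uM) and to 6 at 48 h at 60 uM, and gave 25 at 1000 uM. It gave 11 and 15 for 1000 against 60 uM at 24 and 48 h, and 7 for the 1000 uM difference between times. Median centring gave 5 at 60 uM, 24 h. Of single values that had passed, 4 turned positive, and the cause was not tested: under spike-in scaling, at 1000 uM, 24 h, Actg1 was 0.033 and Pfn1 0.074, and in the second brightest probe set Msn was 0.198 for 1000 against 60 uM at 48 h and Anxa3 was 0.094 for the difference between times. Under spike-in scaling the median of the monomer and filament-end genes at 1000 uM, 24 h was 0.074 and that of the adhesion linkers at 48 h was 0.004. Leaving out 1 array gave 7 to 11 and 28 to 31 calls at 24 h, 12 to 18 and 32 to 34 at 48 h, 19 to 22 and 28 to 30 for 1000 against 60 uM, 7 to 9 over time in DMSO, 1 for the difference between times at 60 uM and 10 to 13 at 1000 uM. Of 4290 values for single genes with an array left out, 96 lost and 22 gained a call and 0 changed direction. Of 3798 under the other alternatives, 143 lost and 43 gained one. The running numbers in the titles form 5 rounds of 6 arrays, with 1 array of each group. Deviations from the group means correlated at -0.05 to 0.11 over 75 same-round pairs, with 12 of 30 arrays closest to their own round. With 5 rounds of equal size, chance alone would place fewer arrays closest to their own round. With this round as a replicate block, an alternative chosen after seeing the data, the counts were 10 and 29 at 24 h and 19 and 33 at 48 h, and of 351 values 1 lost and 6 gained a call.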
